A study of Mus musculus with 4 samples.

Results

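Signalling by bone morphogenetic proteins (BMPs) was described through 10 genes that were chosen by name from the 32285 genes of the deposited tables. They comprise the antagonist Grem1, the ligands Bmp2, Bmp4, Bmp6 and Bmp7, the receptors Bmpr1a, Bmpr1b and Bmpr2, and the target genes Id1 and Id3. All 10 had UMIs (unique molecular identifiers, each marking 1 captured RNA molecule) in every one of the 4 libraries. Ovaries of 8-week-old female mice were dissociated and sequenced as single cells on the 10x Genomics 3′ platform, with 2 Fosl2F/F and 2 Fosl2cKO libraries. Both groups carry LoxP sites around coding exons of both copies of Fosl2 (Fosl2flox/flox), an AP-1 transcription factor, and were littermates. Fosl2cKO mice also carry Cyp19a1-Cre, a transgene under the promoter of the aromatase gene that acts in granulosa cells (GCs). The submitters' labels call the Fosl2F/F libraries wild type, although these mice carry the floxed alleles. The comparison asks how ovarian cells differ when Fosl2 is deleted in GCs.

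BMPs are secreted dimers that bring together type I and type II serine/threonine kinase receptors on the cell surface. The activated receptors phosphorylate Smad1, Smad5 and Smad9, which enter the nucleus with Smad4 and switch on targets such as the Id genes. Extracellular antagonists, of which Gremlin 1 is one, bind the ligands and keep them from the receptors. In the ovary BMPs from theca cells, GCs and the oocyte act on the growth and steroid production of GCs.

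The 4 libraries kept 6760 to 19575 cells (41538 in all) with 104462668 to 111365033 UMIs each. Fosl2F/F replicate 2 stands apart with more and shallower cells (19575 cells with a median of 3654 UMIs, against 6760 to 8150 cells and medians of 11187 to 12479 UMIs in the others). Any pair of libraries shared the barcodes of 10 to 38 kept cells. Fosl2, the targeted gene, had 161 and 167 CPM (UMIs of the gene per 1e6 UMIs of the class) in GC-like cells of the Fosl2F/F libraries and 167 and 115 in those of the Fosl2cKO libraries (log2 fold change -0.25, standard error (SE) 0.20, edgeR adjusted p = 1.0). Whether the counted 3′ tags lie inside or outside the floxed exons was not tested, so this count alone does not decide on the deletion. The count does not separate the groups, and the Fosl2cKO libraries are called libraries labelled Fosl2cKO from here on. Classes of cells were rebuilt from clusters, carry the suffix "-like", and were used if no library had fewer than 20 of their cells (14 classes and unnamed clusters, and 7 subclasses of the GC-like cells). Levels are CPM of the class, summed over its cells in each library. Values for 4 libraries are given in the order Fosl2F/F replicates 1 and 2, then replicates 1 and 2 labelled Fosl2cKO. Levels between classes are descriptions without a test, since the classes were built from the same cells.

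Promoter sequences were looked up to show the regulatory DNA of the antagonist and of the receptors. RefSeq windows on GRCm38.p6 were matched by symbol for 7 of the 10 genes, in 9 windows of 300 bases (250 before and 50 after a transcript start). Some of the Bmpr1b windows overlap each other. The windows of Bmp6, Bmpr1a, Bmpr1b, Bmpr2 and Id3 lie inside the spans of these genes given below. Their starts are therefore not the outermost ones, and the DNA before the outermost starts of these genes was not searched. Bmp2, Bmp7 and Id1 had no match in the set of windows used. The motif GGCGCC, a GC-rich element known to bind Smad1 and Smad5, reads the same on both strands and lies inside the longer element TGGCGCC, which was searched too. It was present in the windows of Grem1, Bmpr1a and Bmpr2, at positions -78, -198 and -105 from the start, and in 11.9% of all 32851 windows. The bases G and C made up 70.67%, 79.33% and 59.33% of these windows, and the share among windows of like composition was not tested. The 250 bases before those 3 starts are shown 5′ to 3′ on the strand of the gene, with GGCGCC in capitals. They lie at chr2:113758649-113758898 (Grem1, minus strand), chr14:34502547-34502796 (Bmpr1a, minus strand) and chr1:59764029-59764278 (Bmpr2, plus strand).
Grem1: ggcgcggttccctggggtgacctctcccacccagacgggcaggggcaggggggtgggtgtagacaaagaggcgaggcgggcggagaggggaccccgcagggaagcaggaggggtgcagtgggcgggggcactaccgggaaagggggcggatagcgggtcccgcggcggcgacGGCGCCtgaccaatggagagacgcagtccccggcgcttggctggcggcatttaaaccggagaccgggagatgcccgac
Bmpr1a: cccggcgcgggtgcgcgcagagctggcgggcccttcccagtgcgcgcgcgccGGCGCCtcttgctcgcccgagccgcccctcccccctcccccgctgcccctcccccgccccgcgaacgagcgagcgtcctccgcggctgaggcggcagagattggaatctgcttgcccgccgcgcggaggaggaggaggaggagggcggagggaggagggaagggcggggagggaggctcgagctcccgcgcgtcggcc
Bmpr2: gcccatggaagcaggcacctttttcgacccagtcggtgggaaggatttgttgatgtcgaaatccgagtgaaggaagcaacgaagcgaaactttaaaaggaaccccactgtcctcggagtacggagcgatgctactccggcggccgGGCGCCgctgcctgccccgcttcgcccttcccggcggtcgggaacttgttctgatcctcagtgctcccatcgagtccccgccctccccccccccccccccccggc
The AP-1 motif TGANTCA, the kind of site that Fosl2 dimers bind, was in 0 of the 9 windows and in 7.81% of all windows. The longer element TGGCGCC was in 4.03% of all windows, the cAMP element TGACGTCA in 1.79% and the Smad palindrome GTCTAGAC in 0.213%, each searched on both strands. The 9 windows held none of these 3.

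Grem1 (chr2:113746164-113758646, GRCm38), which codes for the secreted BMP antagonist Gremlin 1, had nearly all of its UMIs in GC-like cells (91.0% to 98.3% in the 4 libraries). Their level was 139, 19.6, 6.63 and 12.8 CPM (44.5 ± 63.2, SD, n = 4), so 1 library, Fosl2F/F replicate 1, was far above the other 3. In the 13 other classes and clusters Grem1 reached at most 15.7, 2.62, 0.395 and 0.532 CPM. Each was below the GC-like cells of the same library. Across libraries the ranges of unnamed cluster 11, pericyte or smooth muscle-like and B lymphocyte-like cells overlapped with that of the GC-like cells, each through Fosl2F/F replicate 1. In that library these classes had 3, 25 and 2 Grem1 UMIs. Macrophage-like cells, which should lack the gene, had 4.97, 1.42, 0.228 and 0.408 CPM, again highest in Fosl2F/F replicate 1. A Grem1 UMI was seen in 42.6%, 6.81%, 5.86% and 9.50% of GC-like cells, and in 4.17%, 0.405%, 0.255% and 0.377% of macrophage-like cells. With each cell thinned to 2000 UMIs the mean shares were 6.33% ± 8.25 and 0.380% ± 0.427 (SD, n = 4). The median depth was 4582.5 to 19209 UMIs in GC-like cells, compared with 2359 to 8827.5 in the macrophage-like class, and thinning left out 6.25%, 20.3%, 4.26% and 4.23% of the cells of the libraries.

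Within the GC-like cells Grem1 was highest in mural-like GCs, named after the cells that line the follicle wall, with 250.1, 46.6, 16.5 and 35.3 CPM. Mitotic-antral-like GCs had 211, 29.6, 15.5 and 34.8 CPM, and mitotic-like GCs 176, 26.4, 5.73 and 12.5 CPM. The ranges of all 3 overlap. Cumulus-like GCs, named after the cells that surround the oocyte, had 3.91, 1.70, 0.375 and 0.494 CPM. This was below the mural-like GCs of the same library in each of the 4 libraries. These names rest on marker genes, and the position of the cells was not tested. Atretic-like GCs, named after the cells of follicles that degenerate, had 22.1, 23.3, 1.009 and 3.46 CPM, where both Fosl2F/F libraries were alike and above both others. In the other subclasses named here Fosl2F/F replicate 1 was the highest library. With finer clusters, Grem1 was among the leading genes of an unnamed cluster led by Kcne2 and not among those of the mural-like cluster, so this order holds for the main clustering.

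**Figure D1:**
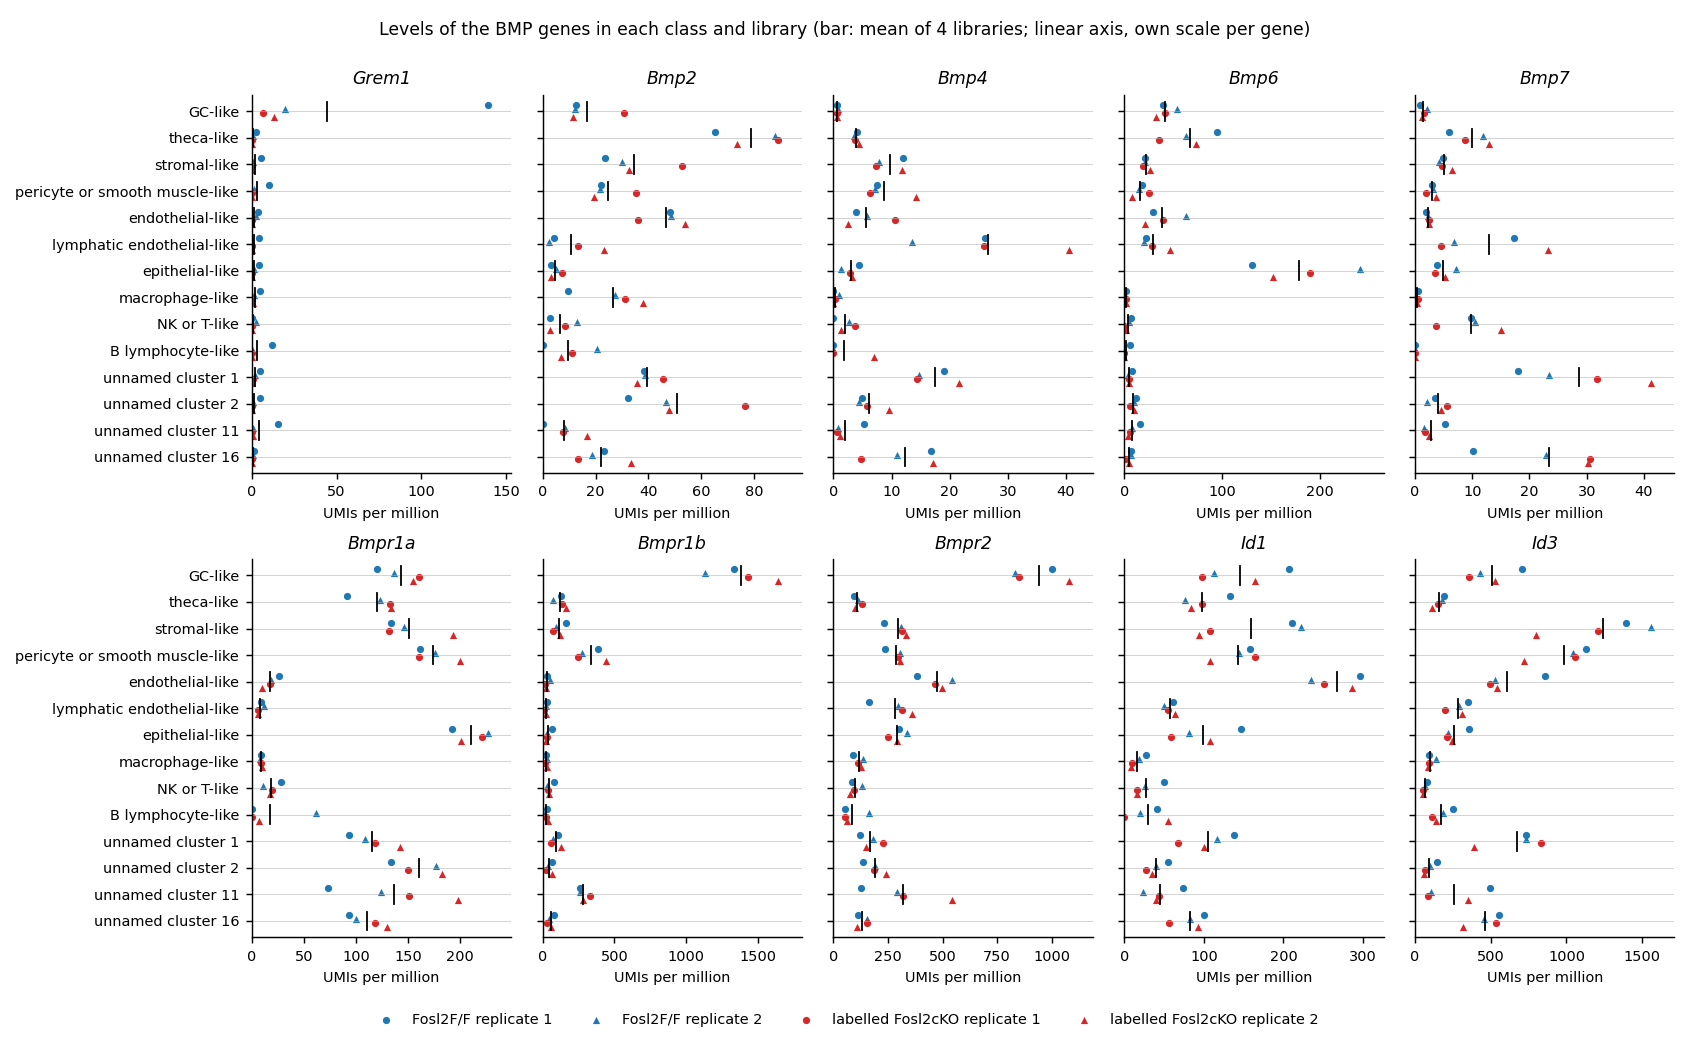
Levels (x axis, CPM, linear with its own scale per gene) of the 10 genes in 14 classes and unnamed clusters, with a point for each of the 4 libraries and a bar for their mean. Bmpr1b and Bmpr2 were highest in GC-like cells, Bmp6 in epithelial-like and Bmp2 in theca-like cells, and the Grem1 mean of 44.5 CPM in GC-like cells rests on 1 library at 139 CPM.

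The ligands were highest in different classes. Bmp2 (chr2:133552159-133562885), known from bone formation and from decidualization, was highest in theca-like cells, the steroid-producing layer around the follicle, with 65.1, 87.9, 89.2 and 73.5 CPM (78.9 ± 11.6, SD, n = 4). Unnamed cluster 2 (led by Abcb1b and Dync1i1) had 51.0 ± 18.5 CPM, endothelial-like cells 46.6 ± 7.56, unnamed cluster 1 (led by Enpep and Tmem100) 39.6 ± 4.19 and stromal-like cells 34.7 ± 12.6 CPM. Each of these overlaps with its neighbour in the order. GC-like cells as a whole had 16.8 ± 9.37 CPM, below the macrophage-like cells at 26.5 ± 12.2 CPM, but they differed within. Atretic-like GCs reached 41.4, 80.5, 146 and 46.6 CPM and mural-like GCs 17.4, 22.2, 69.6 and 16.7 CPM, while cumulus-like GCs had 2.83 ± 0.660 CPM. Replicate 1 labelled Fosl2cKO was the highest library in both atretic-like and mural-like GCs.

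Bmp4 (chr14:46383520-46390669), a ligand best known from mesoderm formation, was low throughout. Lymphatic endothelial-like cells had 26.0, 13.6, 26.0 and 40.6 CPM from 48 UMIs in all, and unnamed cluster 1 had 17.4 ± 3.53 CPM. Stromal-like cells had 9.75 ± 2.55 CPM, theca-like cells 3.92 ± 0.424 CPM and GC-like cells 0.694 ± 0.0920 CPM, near the 0.294 ± 0.449 CPM of macrophage-like cells. Unnamed cluster 1 held 25.8% to 35.2% of its UMIs and stromal-like cells 13.1% to 17.9%.

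Bmp6 (chr13:38345107-38500302), which signals iron load in the liver and is also made in the ovarian follicle, was highest in epithelial-like cells, the class of the ovarian surface. They had 131, 241, 189 and 151 CPM (178 ± 48.2, SD, n = 4), a range that did not overlap with that of the next class. Theca-like cells had 94.6, 62.9, 35.8 and 73.1 CPM, and GC-like cells 39.2, 54.3, 41.5 and 32.9 CPM. The more numerous GC-like cells held 47.9% to 67.6% of the Bmp6 UMIs, and epithelial-like cells 4.96% to 19.3%. Among GCs the means ran from 63.2 ± 22.6 CPM in mitotic-antral-like to 13.6 ± 6.38 CPM in cumulus-like cells, with overlap between every pair of neighbours. Macrophage-like cells had 1.52 ± 0.448 CPM.

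Bmp7 (chr2:172868012-172940321), a ligand of kidney and eye development, was highest in unnamed clusters 1 and 16, with 28.6 ± 10.2 and 23.4 ± 9.56 CPM, which overlap. Both clusters are led by Enpep, and unnamed cluster 1 alone held 35.4% to 47.7% of the Bmp7 UMIs. Theca-like cells had 9.87 ± 3.18 CPM, stromal-like cells 5.07 ± 0.970 CPM and GC-like cells 1.44 ± 0.576 CPM. Cumulus-like GCs had 5.54, 5.80, 6.50 and 4.78 CPM, above all 4 libraries of each other GC subclass.

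**Figure D2:**
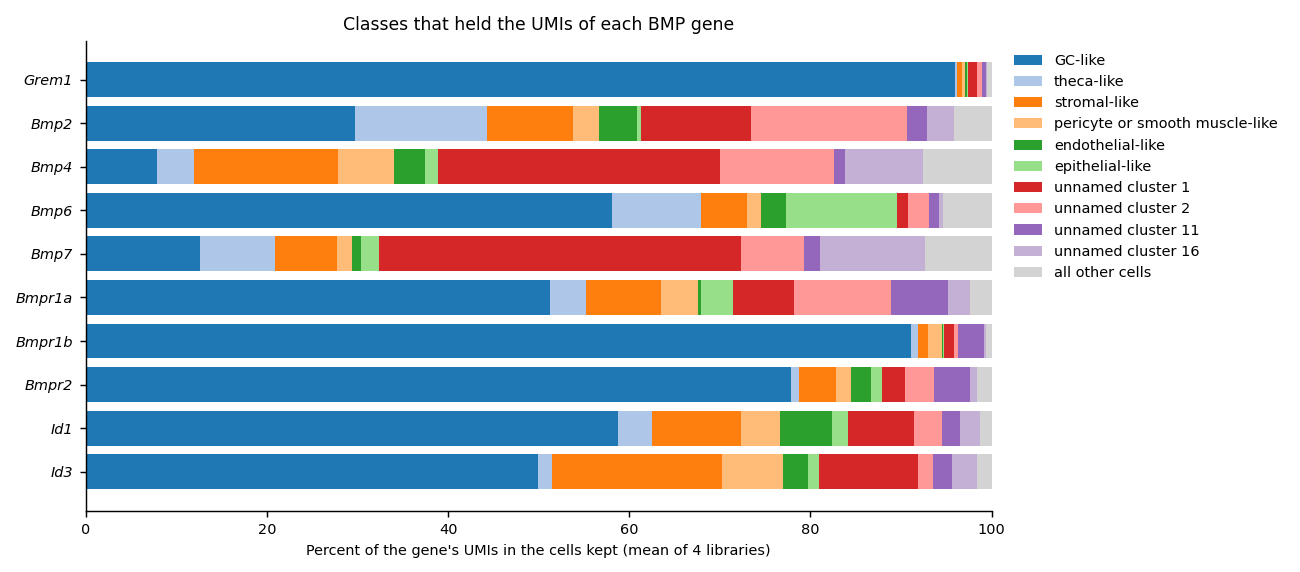
Percent of each gene's UMIs (x axis, mean of 4 libraries) held by named classes, unnamed clusters and all other cells (colours), with a bar for each of the 10 genes. GC-like cells held the largest part of 8 of the 10 genes, from 29.8% of Bmp2 to 96.0% of Grem1, and unnamed cluster 1 that of Bmp4 (31.1%) and Bmp7 (39.9%).

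The receptors followed different patterns. Bmpr1b (chr3:141837136-142169425), the type I receptor ALK6, was highest in GC-like cells, with 1335, 1130.4, 1431 and 1644 CPM. The next class, pericyte or smooth muscle-like cells, had 386, 273, 245 and 438 CPM and did not overlap with them. GC-like cells held 85.2% to 95.3% of its UMIs, and a Bmpr1b UMI was seen in 96.1% ± 3.84 of them (84.0% ± 3.97 after thinning). Macrophage-like cells had 25.1 ± 5.44 CPM and a UMI in 15.0% ± 6.61 of cells (4.39% ± 1.02 after thinning). Within the GCs, atretic-like cells were highest (2167 ± 129 CPM), mural-like cells had 1730.5 ± 393 CPM, which overlaps, and cumulus-like cells were lowest (838, 786, 725 and 1016 CPM).

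Bmpr2 (chr1:59763400-59879014), the type II receptor that many BMPs share, was also highest in GC-like cells, with 999.6, 831, 848 and 1079.5 CPM, above the endothelial-like cells (383, 543, 464 and 499 CPM) without overlap. Loss of Bmpr2 underlies heritable pulmonary hypertension, a disease of blood vessels, and here endothelial-like cells came second. A Bmpr2 UMI was seen in 95.0% ± 5.11 of GC-like cells (76.0% ± 4.32 after thinning) against 46.8% ± 13.2 of macrophage-like cells (20.1% ± 2.58 after thinning), which had 116 ± 20.2 CPM. In the GCs the mural-like (1394 ± 142 CPM) and atretic-like cells (1336 ± 160.1 CPM) were highest, and cumulus-like cells had 370.1, 525, 511 and 550.3 CPM, below the next subclass without overlap.

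Bmpr1a (chr14:34410734-34503341), the type I receptor ALK3, was spread over more classes. Its mean level was between 110.4 and 210.1 CPM in 9 of the 14, namely epithelial-like (210.1 ± 16.2), pericyte or smooth muscle-like (174 ± 18.6), stromal-like (151 ± 29.0), GC-like (143 ± 18.2) and theca-like cells (120.0 ± 19.99) and the 4 unnamed clusters. It was 17.8 ± 6.85 CPM in endothelial-like and 8.01 ± 2.53 CPM in lymphatic endothelial-like cells, against 8.62 ± 0.907 CPM in macrophage-like cells. Bmpr1b was at 30.7 ± 12.9 CPM in endothelial-like cells. Acvrl1, the endothelial type I receptor ALK1, was highest in endothelial-like cells among all classes, with 90.8 ± 19.6 CPM.

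Id1 (chr2:152736251-152737410) and Id3 (chr4:136143497-136145755), inhibitors of basic helix-loop-helix factors that Smad1 and Smad5 switch on, were found in most classes. Id1 was highest in endothelial-like cells, with 296, 234, 251 and 286 CPM, and did not overlap with the stromal-like cells (210.5, 223, 108 and 94.3 CPM). Id3 was highest in stromal-like cells, with 1394, 1557, 1209 and 799 CPM, followed by pericyte or smooth muscle-like cells (985 ± 183 CPM) and unnamed cluster 1 (672 ± 193 CPM), which overlap. GC-like cells had 207, 113, 97.6 and 164 CPM of Id1 and 705, 432, 359 and 529.6 CPM of Id3. In both genes the cumulus-like GCs had the lowest mean of the subclasses (96.3 ± 23.6 CPM of Id1 and 246 ± 44.9 CPM of Id3) and the atretic-like GCs the highest (189.8 ± 50.4 and 699 ± 169.9 CPM). Macrophage-like cells had 16.2 ± 8.78 CPM of Id1 and 100.7 ± 25.1 CPM of Id3.

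**Figure D3:**
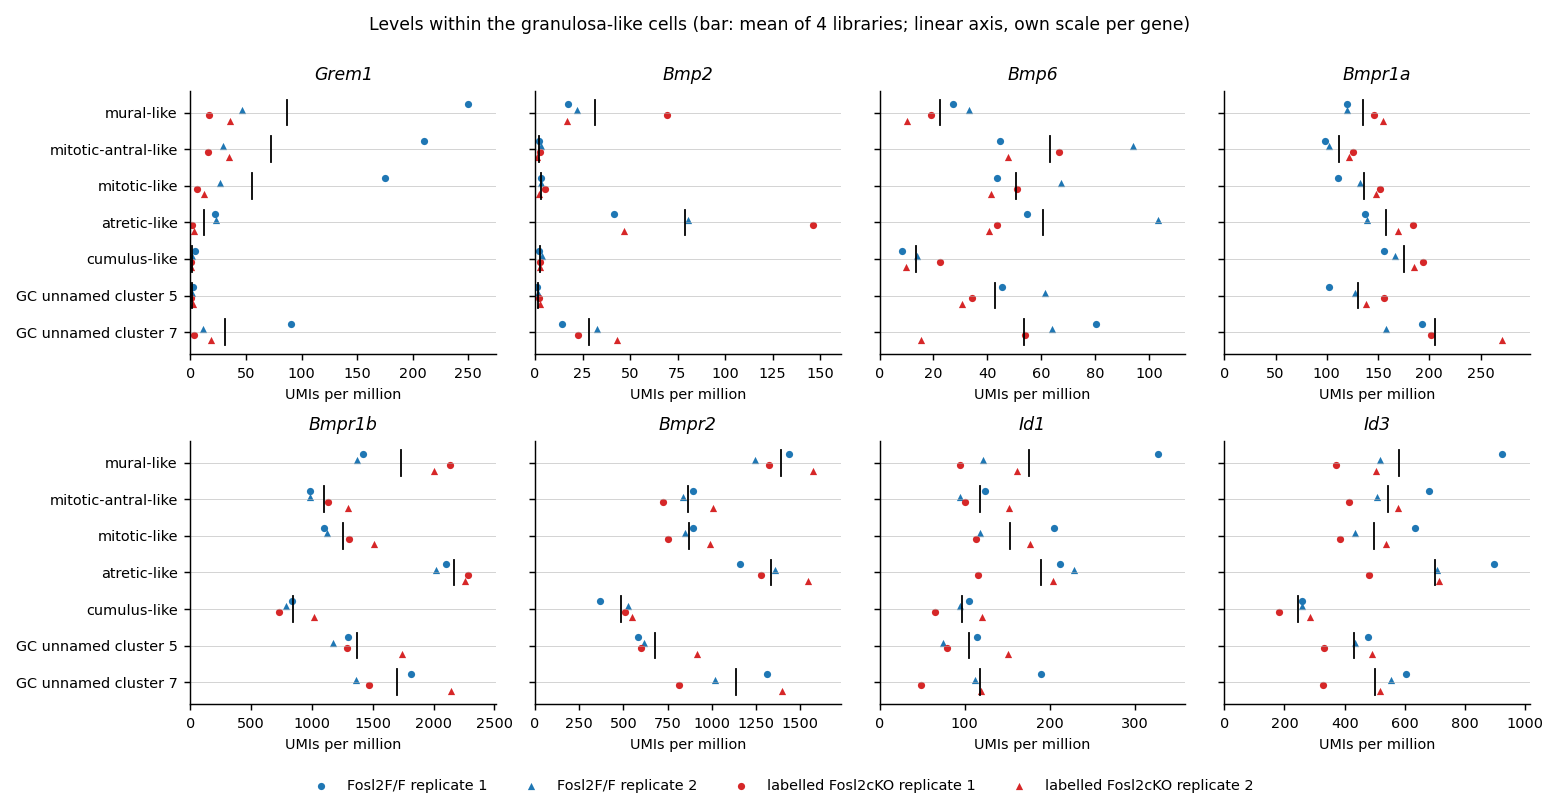
Levels (x axis, CPM, linear with its own scale per gene) of 8 of the 10 genes in 7 subclasses of the GC-like cells, with a point for each of the 4 libraries and a bar for their mean. Cumulus-like GCs were lowest in Bmpr1b (841 CPM on average), Bmpr2 (489 CPM) and Id3 (246 CPM), and Bmp2 was highest in atretic-like GCs (78.7 CPM).

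The genes with the most similar pattern were sought among the 11403 genes with at least 20 CPM in a class, by Pearson's r of log2(mean CPM + 1) over the 21 classes and subclasses. These points share libraries, and 7 of them are parts of the GC-like class. Grem1 was most like Inhba (r = 0.969), Inhbb (0.940) and Nap1l5 (0.935). Inhba and Inhbb code for subunits of activins and inhibins. Bmpr1b was most like Kcnj3 (0.964), the ligand gene Bmp3 (0.962) and Chst8 (0.956), and Bmpr2 most like Zfp711 (0.929), Me3 (0.912) and Tmem87b (0.902). For Bmpr1a the nearest were Ninl (0.961), Gata4 (0.947) and Sobp (0.944). For Bmp4 they were Fstl1 (0.930), Rftn2 (0.927) and Rhoj (0.927), and for Id3 Nrep (0.948), Mex3b (0.890) and Jam3 (0.874). Id1 was nearest to Jam3 (0.896), Klhl13 (0.881) and Phldb1 (0.870), and Bmp6 to Atp9a (0.844), Phactr4 (0.836) and Rbm15b (0.832). Bmp7 was nearest to Rtn4rl1 (0.851), Stc2 (0.848) and 5033406O09Rik (0.821), and Bmp2 to Polr3gl (0.797), Glul (0.784) and Man2a1 (0.770).

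The conditions were compared in 7 classes on UMIs summed per library, with edgeR's quasi-likelihood test, and a gene was called at a Benjamini-Hochberg adjusted p under 0.1 with a log2 fold change over 0.25 in size. Fold changes are those of the libraries labelled Fosl2cKO against the Fosl2F/F libraries. None of the 10 genes was called by edgeR in any class, so every direction given here is one of the values and not of a call. Of the genes tested, 0.00579% were called in GC-like cells, 0.0158% in mural-like, 0.00762% in cumulus-like and 0.00772% in atretic-like GCs, 0.212% in stromal-like, 0.0398% in theca-like and 0.177% in endothelial-like cells. At an unadjusted p under 0.05 there were 1 of 10 BMP genes in GC-like cells, 4 of 8 in mural-like, 1 of 9 in cumulus-like, 2 of 8 in atretic-like, 1 of 9 in stromal-like, 0 of 9 in theca-like and 1 of 8 in endothelial-like cells, where 3.83% to 4.84% of all genes tested passed that limit. These shares do not test the list, since the 10 genes were chosen with earlier results of these data known. DESeq2 called 1 of them in atretic-like GCs (Grem1), 1 in stromal-like cells (Id1) and 0 in the other 5 classes. Of all genes tested DESeq2 called 0.966% in GC-like cells, 0.599% in mural-like, 0.465% in cumulus-like and 0.324% in atretic-like GCs, 0.304% in stromal-like, 0.207% in theca-like and 0.265% in endothelial-like cells. With 2 libraries against 2, an exact two-sided permutation test of a single value cannot go below p = 0.333. The p-values measure the spread between these libraries, which may be technical.

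Grem1 had lower values in both libraries labelled Fosl2cKO in GC-like cells and in mural-like, cumulus-like and atretic-like GCs, which did not pass the edgeR threshold. The cumulus-like values were near those of macrophage-like cells, which should lack the gene. In mitotic-antral-like GCs, which were not tested by condition, the groups overlapped. In GC-like cells the libraries labelled Fosl2cKO had 6.63 and 12.8 CPM versus 139 and 19.6 CPM for Fosl2F/F, without overlap (log2 fold change -3.08, SE 0.88, edgeR adjusted p = 0.889). In mural-like GCs the log2 fold change was -2.60 (SE 0.73, edgeR adjusted p = 0.659), again without overlap. The mural-like subclass rests on the integration of the libraries. Without it a cluster led by Comp, Lhcgr and Grem1 held 39.6%, 0.382%, 0.455% and 0.797% of the GC-like cells of the 4 libraries, and both clusters whose best class was mural, but by too small a lead or without leading markers, lay nearly in 1 library each (25.0% of Fosl2F/F replicate 2 and 14.2% of replicate 1 labelled Fosl2cKO). The size rests on Fosl2F/F replicate 1. Without it the log2 fold change was -0.98 in GC-like cells and -0.90 in mural-like GCs. Without replicate 1 or replicate 2 labelled Fosl2cKO, the value was -2.67 and -3.68 in GC-like cells and -2.13 and -3.24 in mural-like GCs. Each of these fits leaves 1 library in a group, so the spread within that group is not measured. The mural-like subclass was 30.7%, 14.7%, 15.5% and 11.7% of all GC-like cells, highest in the library with most Grem1. With finer clusters the mural-like cluster held 22.2%, 6.16%, 10.1% and 4.79% of the GC-like cells. The unnamed cluster led by Kcne2 and Grem1 then held 11.7%, 8.99%, 7.05% and 10.2%, which overlaps between the conditions. The part of such shares in the GC-like difference was not tested. In sums of this kind fewer cells with Grem1 and less Grem1 per cell cannot be told apart. The share of mural-like GCs with a Grem1 UMI was 63.2%, 14.0%, 12.4% and 19.5% (29.96%, 7.89%, 2.62% and 5.78% after thinning), which overlaps between the conditions before thinning and not after it.

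In atretic-like GCs the Grem1 values of both Fosl2F/F libraries were alike with the integrated clusters. They were 22.1 and 23.3 CPM (254 and 71 UMIs) for Fosl2F/F versus 1.009 and 3.46 CPM (6 and 28 UMIs). This is a log2 fold change of -3.35 (SE 0.49, edgeR adjusted p = 0.511), and DESeq2 gave -3.37 (SE 0.56, adjusted p = 7.1e-06). Without integration this class lay nearly in 1 library, with 21.4%, 0.199%, 0.136% and 3.23% of the GC-like cells of the 4 libraries. This class and the cumulus-like GCs are outside the rule for named values, since their means are under 20 CPM, and were taken up after their values had been seen. Leaving out each library in turn gave log2 fold changes from -4.55 to -2.78, none called. Cumulus-like GCs, with 3.91, 1.70, 0.375 and 0.494 CPM, gave -2.68 (SE 0.71, edgeR adjusted p = 0.490), at a level near that of the macrophage-like cells. Those cells, which should lack Grem1, were also lower in both libraries labelled Fosl2cKO (4.97, 1.42, 0.228 and 0.408 CPM). The part of background RNA in the cumulus-like value was not tested. In stromal-like, theca-like and endothelial-like cells Grem1 did not pass the filter on low counts. Without replicate 1 labelled Fosl2cKO it passed the filter in stromal-like cells. It did so from 29 and 5 UMIs for Fosl2F/F against 2 UMIs in the 1 library left, too few for a fold change.

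**Figure D4:**
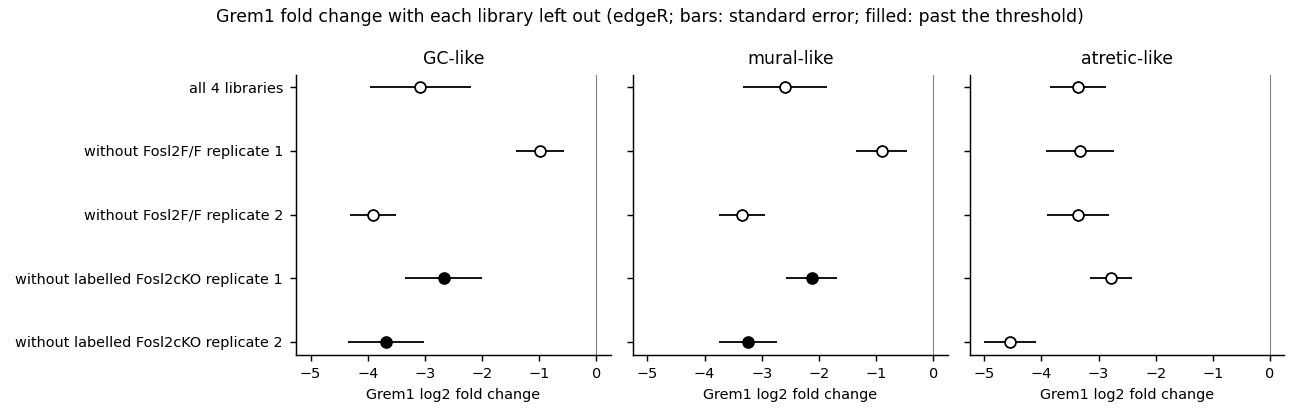
Grem1 log2 fold change (x axis, points, with standard errors (SE) as bars) in GC-like, mural-like and atretic-like cells with all 4 libraries and with each left out in turn (y axis), filled where past the threshold. Without Fosl2F/F replicate 1 the value is -0.98 in GC-like cells and -0.90 in mural-like GCs, and in atretic-like GCs the values run from -4.55 to -2.78. Each fit with a library left out has 1 library in a group.

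None of the 4 ligands was called by edgeR in any class with all 4 libraries and the low-count filter. Without that filter edgeR called Bmp2, Bmp6, Grem1, Id1 and Id3 in mural-like GCs (1.56% of all genes tested), Bmp6 and Grem1 in atretic-like GCs (1.29%) and Grem1 in GC-like (0.985%), cumulus-like (1.06%) and stromal-like cells (0.941%). In mural-like GCs Bmp6 had 27.2 and 33.2 CPM for Fosl2F/F versus 18.9 and 10.3 CPM for the libraries labelled Fosl2cKO, without overlap (log2 fold change -1.08, SE 0.32, edgeR adjusted p = 0.711, and -1.58 to -0.73 with each library left out in turn, called the left-out range from here on). Without replicate 1 labelled Fosl2cKO the Bmp6 value there was -1.58, and without replicate 2 labelled Fosl2cKO the Bmp2 value there was 1.76. Each of these fits leaves 1 library labelled Fosl2cKO. In atretic-like GCs Bmp6 had 54.8 and 103 CPM versus 43.5 and 40.5 CPM, also without overlap (-0.96, SE 0.29, edgeR adjusted p = 0.934, left-out range -1.31 to -0.51). Without integration of the libraries the atretic-like value turned to 0.39, in a class that then held 21.4%, 0.199%, 0.136% and 3.23% of the GC-like cells of the 4 libraries and so rests nearly on 1 library. GC-like cells as a whole overlapped (-0.36, SE 0.21, left-out range -0.52 to -0.15), and so did stromal-like cells (0.063, SE 0.31, left-out range -0.16 to 0.24). In stromal-like cells Bmp2 was 23.5 and 29.9 CPM versus 52.6 and 32.7 CPM, which did not overlap (0.68, SE 0.32, edgeR adjusted p = 1.0), with 0.54 and 0.84 without Fosl2F/F replicates 1 and 2 and 0.24 and 1.002 without replicates 1 and 2 labelled Fosl2cKO. In GC-like cells Bmp2 was 12.5 and 12.1 CPM versus 30.9 and 11.7 CPM, so that 1 library labelled Fosl2cKO stood above the rest (0.74, SE 0.41), and without that library the log2 fold change was -0.088. Without replicate 2 labelled Fosl2cKO it was 1.26, with 1 library labelled Fosl2cKO left in the fit. Bmp4 had log2 fold changes of -0.16 (SE 0.39) in GC-like and -0.048 (0.38) in stromal-like cells, and Bmp7 of -0.073 (0.51) and 0.28 (0.44), each with overlap. Their left-out ranges were -0.31 to -0.0011 and -0.40 to 0.32 for Bmp4 and -0.60 to 0.74 and 0.06 to 0.45 for Bmp7. Bmp4 in mural-like, cumulus-like and atretic-like GCs and Bmp7 in mural-like, atretic-like and endothelial-like cells did not pass the low-count filter.

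None of the 3 receptors was called by edgeR in any class with all 4 libraries, with or without the low-count filter. Bmpr1a in GC-like cells had 120.1 and 136 CPM for Fosl2F/F versus 160.0 and 155 CPM for the libraries labelled Fosl2cKO (log2 fold change 0.27, SE 0.15, edgeR adjusted p = 1.0). It did not overlap either in mural-like (0.28, SE 0.19), cumulus-like (0.19, 0.19) and atretic-like GCs (0.27, 0.19) and in theca-like cells (0.25, 0.28, left-out range 0.081 to 0.45), where it was also higher in both libraries labelled Fosl2cKO. In stromal-like cells Bmpr1a overlapped (0.21, SE 0.31, left-out range -0.061 to 0.42). In endothelial-like cells, at 26.1 and 18.8 against 17.1 and 9.36 CPM, it was lower in both libraries labelled Fosl2cKO (-0.72, SE 0.38), a value outside the rule for named values and chosen after it had been seen. These classes come from the same libraries.

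Bmpr1b had 1417 and 1371 CPM versus 2132 and 2002 CPM in mural-like GCs (log2 fold change 0.52, SE 0.20, edgeR adjusted p = 0.995) and a log2 fold change of 0.29 (SE 0.20, left-out range 0.13 to 0.47) in GC-like cells, both without overlap. It was also without overlap in atretic-like GCs (0.065, 0.27, and -0.0091 to 0.16 with a library left out) and theca-like cells (0.49, 0.33, left-out range 0.14 to 0.96). In endothelial-like cells it was lower in both libraries labelled Fosl2cKO, with 30.9 and 48.7 against 19.2 and 24.0 CPM (-0.93, SE 0.31, edgeR adjusted p = 0.617, left-out range -1.16 to -0.53), a level near the 25.1 CPM of macrophage-like cells. In stromal-like cells Bmpr1b overlapped (-0.46, SE 0.35, left-out range -0.83 to 0.032), as did Bmpr2 in GC-like cells (0.044, 0.22, left-out range -0.17 to 0.24). Bmpr2 in stromal-like cells had 233 and 311 CPM versus 313 and 331 CPM, which did not overlap (0.24, SE 0.32, edgeR adjusted p = 1.0, left-out range 0.072 to 0.44).

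Id1 in stromal-like cells had 210.5 and 223 CPM for Fosl2F/F versus 108 and 94.3 CPM for the libraries labelled Fosl2cKO, without overlap (log2 fold change -1.11, SE 0.31, edgeR adjusted p = 0.342). DESeq2 called it from the same sums (-1.10, SE 0.29, adjusted p = 0.05001). Leaving out each library in turn gave log2 fold changes from -1.25 to -0.99, none called. Id3 in stromal-like cells had 1394 and 1557 CPM versus 1209 and 799 CPM, also without overlap (-0.55, SE 0.33, edgeR adjusted p = 1.0, left-out range -0.94 to -0.26). In GC-like cells both genes overlapped, with log2 fold changes of -0.33 (SE 0.37) for Id1 and -0.39 (0.32) for Id3, and without Fosl2F/F replicate 1 they turned to 0.24 and 0.072. Id3 did not overlap in mural-like GCs, with 924 and 519 against 370.5 and 504 CPM (-0.77, SE 0.32, edgeR adjusted p = 0.995, left-out range -1.13 to -0.28), and in theca-like cells, with 189.8 and 177 against 153 and 109.8 CPM (-0.56, 0.29, left-out range -0.81 to -0.34). Id1 did not overlap in atretic-like GCs, with 212 and 228 against 116 and 203 CPM (-0.54, 0.29). With a library left out that value ran from -1.01 to -0.18, and without integration it turned to 0.16 in the class that rests nearly on 1 library.

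**Figure D5:**
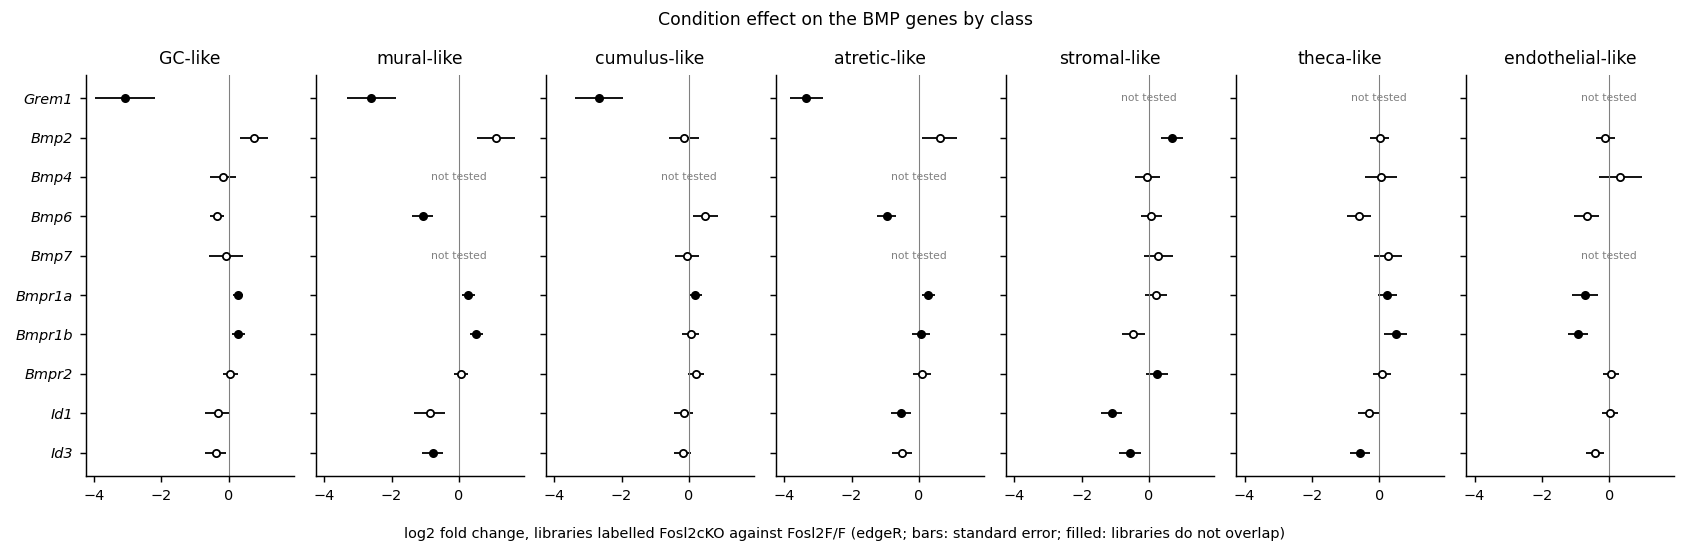
Log2 fold change (x axis, points, with standard errors (SE) as bars) of the libraries labelled Fosl2cKO against Fosl2F/F for the 10 genes (y axis) in the 7 classes tested, filled where the libraries of the groups do not overlap. Grem1 lies between -3.35 and -2.60 in GC-like cells and their 3 tested subclasses, Id1 in stromal-like cells is at -1.11, and none of the points passed the threshold. The cumulus-like Grem1 value is at a level near that of macrophage-like cells.

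Over the list, 3 of 10 genes did not overlap between the groups in GC-like cells, 5 of 8 in mural-like, 2 of 9 in cumulus-like, 5 of 8 in atretic-like, 4 of 9 in stromal-like, 3 of 9 in theca-like and 2 of 8 in endothelial-like cells. Over all genes tested, 31.6%, 33.2%, 30.8%, 35.1%, 28.6%, 30.9% and 28.3% did not overlap in the same classes. The list was chosen with earlier results of these data known, so these shares do not test it. The median log2 fold change of the list was -0.12 in GC-like cells (-0.02 over all genes), -0.35 in mural-like GCs (-0.00), -0.05 in cumulus-like GCs (-0.01), -0.22 in atretic-like GCs (-0.01), 0.06 in stromal-like cells (0.01), 0.05 in theca-like cells (-0.00) and -0.27 in endothelial-like cells (-0.00).

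Whether the effect differed between GC-like and stromal-like cells was tested as an interaction term. None of the 10 genes was called by edgeR or by DESeq2. Of the 17566 genes tested 0% were called by edgeR (616 had an unadjusted p under 0.05) and 4 genes (0.0228%) by DESeq2. For Grem1 the term cannot decide, since stromal-like cells had only 29, 5, 3 and 2 Grem1 UMIs in the libraries. The log2 differences ran from -0.41 (Bmp6) to 0.80 (Id1), and Bmpr1b was the 1 gene of the list with an unadjusted p under 0.05 (0.72, SE 0.27, edgeR adjusted p = 1.0).

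The other 49 genes of the pathway list were followed in the same way, and 13 of them reached 100 CPM in a class or subclass. Among the antagonists, Fst, which codes for the activin-binding follistatin, was highest in mural-like GCs (482 ± 66.8 CPM), Fstl1 in pericyte or smooth muscle-like cells (352 ± 49.7 CPM), Nbl1 in stromal-like cells (172 ± 65.7 CPM) and Bambi, a decoy receptor, in epithelial-like cells (135 ± 41.5 CPM). Among the receptors, Acvr1, the type I receptor ALK2, had 316 ± 76.5 CPM in unnamed cluster 2 and 205 ± 65.6 CPM in theca-like cells, and the type II receptor Acvr2a 102 ± 24.6 CPM in epithelial-like cells. The co-receptor Eng was highest in endothelial-like cells (553 ± 35.6 CPM). Smad1 had 592 ± 69.8 CPM in lymphatic endothelial-like and 215 ± 52.8 CPM in endothelial-like cells, and Smad4, the shared partner of the receptor Smads, reached 120.2 ± 19.3 CPM in atretic-like GCs. The ubiquitin ligases Smurf1 and Smurf2, which remove Smads and receptors, had 139 ± 57.7 and 272 ± 17.5 CPM in lymphatic endothelial-like cells. Id2 was highest in NK or T-like cells (635 ± 92.5 CPM), and so was Smad7 (148 ± 115 CPM).

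By condition, edgeR called 0 of the 38 other pathway genes tested in GC-like cells, 0 of 30 in mural-like, 0 of 31 in cumulus-like, 0 of 31 in atretic-like, 0 of 38 in stromal-like, 0 of 29 in theca-like and 0 of 23 in endothelial-like cells. An unadjusted p under 0.05 was reached by 4, 4, 3, 4, 8, 4 and 3 of them in that order, where 4.75%, 4.84%, 4.07%, 4.73%, 4.24%, 3.83% and 4.45% of all genes tested reached it. These pathway genes too were chosen with earlier results of these data known. DESeq2 called 2 of them in GC-like cells (Gdf9 and Smad7), 1 in cumulus-like GCs (Smad7), where it called 0.966% and 0.465% of all genes tested. It called 0 in the other 5 classes, where 3, 3, 5, 4 and 1 reached an unadjusted p under 0.05 (mural-like, atretic-like, stromal-like, theca-like and endothelial-like). In these 5 classes DESeq2 called 0.599%, 0.324%, 0.304%, 0.207% and 0.265% of all genes tested, and 3.85%, 3.41%, 2.99%, 2.72% and 2.27% reached an unadjusted p under 0.05. Smad7, an inhibitory Smad that BMP and TGF-beta signals induce, reached it in all 7 classes, and is named after its values had been seen. It had 48.0 and 51.7 CPM in Fosl2F/F GC-like cells versus 92.2 and 134 CPM in those labelled Fosl2cKO (log2 fold change 1.16, SE 0.22, edgeR adjusted p = 0.472). In stromal-like cells it had 27.8 and 39.7 against 57.7 and 71.6 CPM (0.93, SE 0.30, edgeR adjusted p = 0.529), and in endothelial-like cells 55.0 and 77.3 against 95.4 and 172 CPM (0.99, SE 0.31, edgeR adjusted p = 0.520). All 7 comparisons use the same 4 libraries. Gdf9, a ligand made by the oocyte, had 3.21 and 15.5 CPM versus 1.30 and 2.61 CPM in GC-like cells (-2.25, SE 0.73, edgeR adjusted p = 0.993) and 5.27 and 33.2 versus 3.08 and 6.05 CPM in stromal-like cells, highest in Fosl2F/F replicate 2 both times. The part of such oocyte RNA in the other differences was not tested.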

How the data were processed

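Single-cell libraries of ovaries from 2 Fosl2F/F and 2 Fosl2cKO samples were analysed from the UMI counts per gene and barcode that the authors deposited. Per the labels these came from Cell Ranger and were analysed in Seurat 4.1.0, and the matrix header names Cell Ranger 7.1.0. The study's methods name CellBender for taking out ambient RNA, and whether the deposited counts precede or follow that step is not given in the sources used here. This Cell Ranger version counts intronic reads unless told otherwise, and the setting is not given either, so UMIs of long genes such as Bmpr1b may include intronic reads. Barcodes needed 500 or more detected genes, more than 1000 UMIs, less than 10% of UMIs from mitochondrial genes and less than 0.1% from haemoglobin genes, and doublets were removed with Scrublet (scanpy 1.11.5). Cells were clustered after SCTransform and integration (Seurat 5.3.0, sctransform 0.4.2) and named from marker lists, with a smallest score of 0.2, a lead of 0.13 (0.1 among GCs) and 3 markers, limits set after the clusters had been seen. Counts were summed per library and class and tested with edgeR 4.0.16 (quasi-likelihood, Benjamini-Hochberg adjusted p). The SE beside an edgeR value was derived as the size of the log2 fold change over the square root of the test statistic F. It is thus no measure apart from the test, and DESeq2 values carry the SE of that tool. DESeq2 1.42.0, other filters, clusterings and left-out libraries were alternatives. The test scripts were tested on simulated data. By the rule for named values, the 10 genes were given in every class, and by condition in GC-like and stromal-like cells and in other classes where they passed the threshold or did not overlap at a mean of at least 20 CPM. Pathway genes were named where they passed the threshold or reached 100 CPM in a class, Fosl2 as the targeted gene, and for each of the 10 genes the 3 with the highest r. The 10 genes and the pathway list were chosen with earlier results of these data known. Per-sample columns left out numbered 0. Libraries of a group are separate samples per the labels, and p-values measure the spread between them, which may be technical. Intervals of counting error were not computed for sums over cells.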

Additional observations from a re-analysis of the deposited data

How the results depend on the processing

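The number of the 10 genes called changed with 2 choices of tool or filter and with single libraries. A fit with a library left out has only 1 library in a group, so its calls do not measure the spread within that group. Without the low-count filter edgeR called 1 in GC-like cells, 5 in mural-like, 1 in cumulus-like and 2 in atretic-like GCs and 1 in stromal-like cells (with 0.985%, 1.56% and 1.29% of all genes in GC-like cells, mural-like and atretic-like GCs, 1.06% in cumulus-like GCs and 0.941% in stromal-like cells), and DESeq2 called 1 in atretic-like GCs and 1 in stromal-like cells. Leaving out each library in turn gave 0 to 2 called in GC-like cells, 0 to 2 in mural-like GCs, 0 to 1 in stromal-like cells and 0 in the other comparisons, where up to 0.81%, 1.69% and 1.8% of all genes were called in the first 3. Those called were Grem1 in all 3, Bmp2 in GC-like cells and mural-like GCs, and Bmp6 in mural-like GCs. Direction turned for Bmp7 in GC-like cells with the replicate block (0.049) and, without integration, for Bmp6 (0.39) and Id1 (0.16) in atretic-like GCs and Bmpr1b in stromal-like cells (0.11). Without integration the atretic-like class rested nearly on 1 library, with 0.199% and 0.136% of the GC-like cells of Fosl2F/F replicate 2 and of replicate 1 labelled Fosl2cKO. The cause of the other turns was not tested. With a library left out it turned in GC-like cells for Bmp2 (-0.088 to 1.26), Bmp7 (-0.60 to 0.74), Bmpr2 (-0.17 to 0.24), Id1 (-0.79 to 0.24) and Id3 (-0.73 to 0.072), in atretic-like GCs for Bmpr1b (-0.0091 to 0.16), and in stromal-like cells for Bmp4 (-0.40 to 0.32), Bmp6 (-0.16 to 0.24), Bmpr1a (-0.061 to 0.42) and Bmpr1b (-0.83 to 0.032). The Grem1 log2 fold change ran from -3.90 to -0.98 in GC-like cells and from -3.34 to -0.90 in mural-like GCs. The Grem1 mean in GC-like cells ran from 13.02 to 57.2 CPM with a library left out. The highest class levels of the 10 genes moved by less than 1 SD under the other alternatives that gave a value. For Grem1 in GC-like cells the SD over libraries exceeds the mean, so this limit cannot show a stable level there.

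Over all genes, in the order GC-like, mural-like, cumulus-like, atretic-like, stromal-like, theca-like, endothelial-like and interaction, edgeR called 1, 2, 1, 1, 30, 5, 20 and 0. DESeq2 called 167, 76, 61, 42, 43, 26, 30 and 4, and edgeR without the low-count filter 255, 348, 237, 283, 217, 173, 169 and 113. With each library left out, the lone library of its group taken to vary like the others, the counts ran 0 to 147, 0 to 216, 1 to 156, 1 to 13, 3 to 261, 0 to 138, 44 to 158 and 2 to 76. The labels do not pair the replicate numbers, and same-numbered libraries did not deviate together (r from -0.20 to -0.07). The replicate block called 24, 7, 36, 1, 0, 15 and 0 genes in the 7 classes and none of the 10. Without integration no mural-like subclass was found, and the difference between GC-like and stromal-like cells was not run with other clusterings. Bmp4 and Bmp7 rested on 142 and 278 UMIs in GC-like cells, which limits what could be resolved.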

Other observations

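Luteal-like and oocyte-like cells had under 20 cells in at least 1 library and entered no comparison. In the 125 oocyte-like cells the oocyte ligands Gdf9 and Bmp15 had 2123 and 729.7 CPM of the summed counts, from 1295 and 445 UMIs. Bmpr1b had 480.4 CPM there (293 UMIs), Bmpr2 233 CPM (142 UMIs) and Bmp6 93.5 CPM (57 UMIs). Grem1 had 3 UMIs in all, each in Fosl2F/F replicate 1, where they make 32.6 CPM. These cells were shallow, with a median of 1713 UMIs, and the part of GC RNA in their counts was not tested. In the 505 luteal-like cells Bmp6 had 98.8 CPM of the summed counts, from 286 and 472 UMIs in the Fosl2F/F libraries and 1 UMI in each library labelled Fosl2cKO, which held 15 and 32 of these cells. Per library this was 85.6 and 140 CPM against 2.59 and 1.66 CPM, so the summed value describes the Fosl2F/F libraries.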
